A study of Mus musculus with 18 samples.

Results

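The same organ was read here as isolated nuclei and as dissociated cells. One droplet library of nuclei from 12-month-old mouse urinary bladders was set against 2 droplet libraries of whole-bladder cells of the same labelled age, taken as whole libraries: the counts of every barcode with at least 500 unique molecular identifiers (UMIs, the tags that mark single RNA molecules) were summed. These are 3 of the 18 samples of a bladder atlas of C57BL/6 mice. The nuclei library held 3472 barcodes and the cell libraries 3023 and 1021. By its label each of the 3 came from a pool of 2 female and 2 male mice, and the labels name no transgene or treatment. There was 1 nuclei library, so the nuclei side has no replicate, and where nothing says that the 2 cell libraries came from separate pools, their spread may be technical. In every test below the lone nuclei library was assumed to vary as the 2 cell libraries did between themselves.

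The bladder wall has an inner lining, the urothelium, of basal, intermediate and superficial umbrella cells, a fibroblast-rich lamina propria, and an outer coat of smooth muscle, the detrusor, which contracts to empty the bladder. Enzymes that free single cells release some cell types more readily than others, and the warm incubation switches on immediate-early genes, whose transcripts appear within minutes of stress. Isolation of nuclei breaks the cells open instead. A nucleus holds newly made RNA, much of it unspliced, and RNAs that never leave the chromatin, while finished messages for ribosomal proteins and mitochondrial enzymes gather in the cytoplasm.

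The libraries differed in depth. The nuclei library held 5197910 UMIs, with a median of 1127 per barcode, and 42.1% of its barcodes had fewer than 1000. The cell libraries held 40043778 and 17397305 UMIs, with medians of 11848 and 15042 per barcode. A median of 711 genes was seen per nucleus and 2678 and 2988 per cell. Transcripts of the mitochondrial genome made up 1.23% of nuclei UMIs and 5.61% and 5.75% of cell UMIs. No barcode was shared between nuclei and cells, and 1 was shared between the cell libraries. Across 19211 genes the log2 levels correlated with a Pearson r of 0.992 between the cell libraries and of 0.842 and 0.837 between nuclei and each of them. The cell libraries still differed beyond sampling noise, with a chi-square of 30.2 per degree of freedom over 13672 genes.

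The sex label of the nuclei library went against its own transcripts. Xist, the RNA that coats the inactive X chromosome of female cells (chrX:103460373-103483233, mm10), had 6 UMIs in the nuclei library, in 6 of 3472 barcodes (0.173%, exact binomial 95% interval 0.0634 to 0.376%). The same RNA had 16344 UMIs in the first cell library, in 44.3% of barcodes, and 6295 in the second, in 36.7%. Xist stays in the nucleus, so a nuclei library of mixed sex would hold it. The Y-linked genes Ddx3y, Eif2s3y, Kdm5d and Uty together had 2333 UMIs in the nuclei library, in 40.3% of barcodes (38.7 to 42.0%), and 3933 and 1742 in the cell libraries, in 54.5% and 60.5%. In counts per 1000000 (CPM) without further scaling, Xist stood at 1.17 in nuclei and at 432 and 384 in cells, and the Y-linked genes stood at 454 in nuclei and at 104 and 106 in cells. A library of detrusor labelled female, counted on the same gene list as the nuclei, held 17072 Xist UMIs and 4153 Y-linked UMIs, so that list does hold Xist. Another on that list, enriched for detrusor and labelled as of mixed sex, held 4 Xist UMIs and 10401 Y-linked UMIs. The library labelled nuclei of 2 female and 2 male mice therefore read as nearly all male, and the cell libraries as mixed. Sex makeup and preparation cannot be told apart in the whole-library comparison. The main values are for this reason also given against 1258 and 520 cell barcodes that held a Y-linked UMI and no Xist UMI, called male-like cells below, a choice made after the data were seen.

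**Figure D1:**
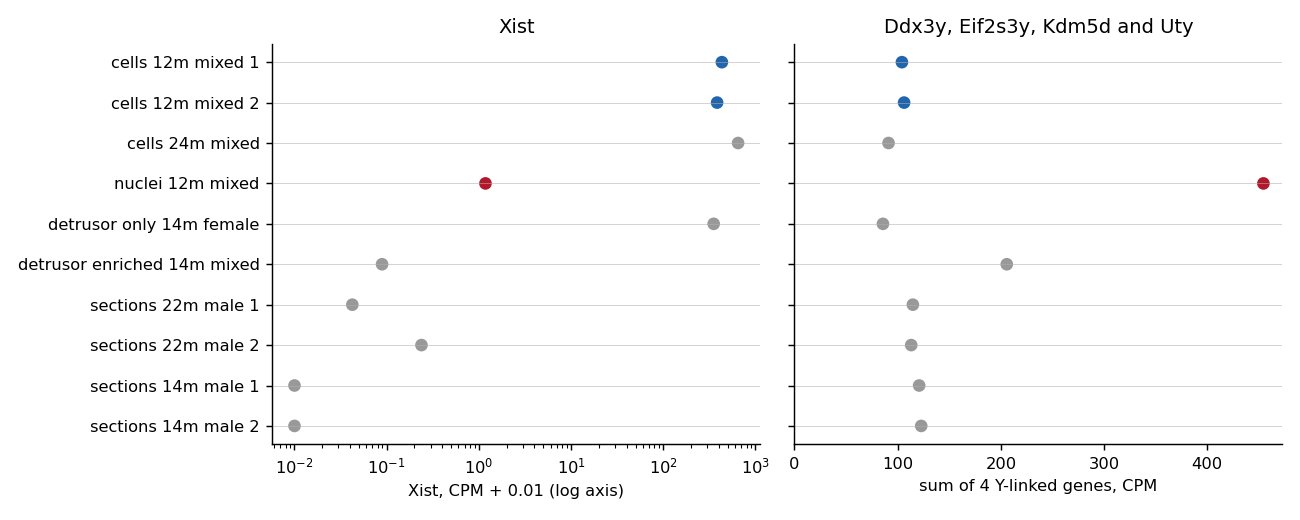
Xist (left, CPM + 0.01 on a log axis) and the sum of 4 Y-linked genes (right, CPM on a linear axis), without further scaling, 1 point for each of the 10 droplet and section libraries that were read, with nuclei in red, 12-month cells in blue and the others in grey. The nuclei library has 1.17 for Xist against 432 and 384 in the cell libraries, and 454 for the Y-linked genes against 104 and 106.

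The gene lists of the tables also differed: the nuclei were counted on 31053 genes and the cells on 27998. The 3 tables had 26586 genes in common after 13 mitochondrial genes were left out. Of these, 16160 had counts on both sides, 1997 were at 0 in nuclei only and 1054 at 0 in both cell libraries only. A set of 4 genes, named below among those at 0 on one side, had at most 3 counts in every table on one list and at least 10 CPM in every table on the other, and no tested gene met that mark. Cell libraries of 22-month and 3-month males were not used here, and statements on tables cover the 10 that were read. Short of that mark, all other tables on the longer list are of detrusor or tissue sections and all others on the shorter list are of cells. Comparisons of tables by gene list, here and below, are in CPM without further scaling. Of 1335 genes higher in nuclei by the 4-fold rule below, 1019 (76.3%) stood higher in every longer-list table than in every shorter-list table. The share of all tested genes was 41.0%. Of 1601 lower ones 605 (37.8%) stood lower in each, against 5.11%. The rule itself placed the nuclei, a longer-list table, beyond both cell libraries, which are shorter-list tables. These shares were thus partly fixed by the choice of genes, and their excess over all tested genes cannot show an effect of the gene list or tissue. For the genes that separated the tables, the gene list, the tissue sampled and the preparation cannot be told apart from the droplet tables alone.

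Of 14265 genes with enough counts to be tested, 58.0% passed edgeR's quasi-likelihood test at a Benjamini-Hochberg adjusted p of 0.05. The nuclei were higher for 3937 genes (27.6%) and lower for 4331 (30.4%). The filter asked for 0.623 CPM, before scaling, in any of the 3 libraries, and 1226 genes passed it only through nuclei and 390 only through cells. A gene of either kind had to differ, so the counts of the lists below that hold such genes are given for members that passed on both sides, of which 12649 of all genes did (25.5% higher, 32.6% lower, median -0.13). A stricter rule asked in addition that the nuclei level be at least 4 times that of the higher cell library, or that the lower cell library be at least 4 times the nuclei level: 1335 genes (9.36%) were then higher in nuclei and 1601 (11.2%) lower. Levels from here on are in CPM scaled by the trimmed mean of M-values (TMM), which sets the typical gene at no change (median log2 difference over all tested genes of -0.02). Without that scaling the same median was 1.27, and 8468 of 10194 called genes were higher in nuclei, 83.1% in place of 47.6%, so every direction below is relative to the typical gene. The exception is the comparison of tables by gene list, which is without TMM scaling, so that more genes stand higher in nuclei there. With male-like cells, 8379 of 13526 genes were called, 1432 higher and 1421 lower by the 4-fold rule. In that fit edgeR gave every gene of like abundance the same spread, with no weight on the gene's own, so its calls for genes that vary between the cell libraries carry less weight. Of the 1335 genes higher against all cells 1180 (88.4%) were among the 1432 (82.4%), and of the 1601 lower genes 1366 (85.3%) were among the 1421 (96.1%).

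Smooth muscle genes were higher in the nuclei library. Of 16 genes of the contractile apparatus, 14 were higher in nuclei and none lower, 13 of them by the 4-fold rule, with a median log2 difference of 5.90 against -0.02 for all tested genes. Their summed level was 20641 CPM in nuclei against 697 and 594 CPM in cells, 32.0 times the cell mean. They took 3.76% of nuclei counts (exact binomial 95% interval 3.74 to 3.77%, counting error only) and 0.053% and 0.0429% of cell counts. In CPM without TMM scaling, all 16 stood higher in every longer-list table than in every shorter-list table, against 41.0% of all tested genes. The gap was 7.84-fold for Acta2 and 42.4-fold for Myh11. In whole libraries, fewer cells of a type and less RNA per cell cannot be told apart.

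Acta2, smooth muscle actin, stood at 2668 CPM in nuclei and at 66.9 and 44.5 CPM in the cell libraries, a log2 difference of 5.58 ± 0.25 (SE; edgeR adjusted p = 1.71e-07). Myh11, the smooth muscle myosin heavy chain (chr16:14194527-14292188, mm10), stood at 2539 CPM in nuclei and at 7.72 and 4.57 CPM in cells, a log2 difference of 8.65 ± 0.31 (edgeR adjusted p = 1.48e-07). Both genes were thus low in each cell library. Tagln, an actin-binding protein of smooth muscle, had 2371 CPM in nuclei against 38.1 and 24.8 CPM. The intermediate filament protein desmin, Des, had 1056 CPM against 6.65 and 4.83 CPM. Mylk, the kinase that starts contraction by phosphorylating the myosin light chain, had 1487 CPM against 37.0 and 32.8 CPM. The tropomyosins, which are also made outside muscle, differed less: Tpm2 had 2201 CPM against 175 and 136, and Tpm1 had 2026 CPM against 229 and 238. The smallest difference of the list belonged to Pdlim7, a scaffold of actin fibres, at 119 CPM against 31.3 and 40.5 CPM.

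Actg2 and Cnn1 of the list did not pass edgeR's test, and their values differed between the cell libraries. DESeq2 called both, and with them 16 of 16 contractile genes, higher on the same libraries. Actg2, the enteric actin that is abundant in visceral muscle, had 2015 CPM in nuclei and 10.7 and 3.28 CPM in cells (log2 difference 8.09 ± 1.10, edgeR adjusted p = 0.0523). Cnn1, calponin, had 678 CPM in nuclei and 5.70 and 0.431 CPM in cells (7.59 ± 1.83, edgeR adjusted p = 0.157). Neither gene's nuclei level overlapped the cell levels, but with 1 nuclei library and 2 cell libraries that alone says little. Both passed against male-like cells (9.83 and 9.15), in the fit with a spread shared across genes. That fit gave no weight to their own difference between the cell libraries. All 16 genes were called higher there, at a median of 6.91.

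Genes of muscle excitability were for the most part close to undetected in cells. Of 12 tested members 9 passed the filter only through nuclei, so that their number says nothing, and they are given as values. The 3 that passed on both sides, Atp2a2, Itpr1 and Pde5a, were called higher (median 1.32). P2rx1, the ATP-gated channel through which nerves excite the detrusor (chr11:72999056-73015200, mm10), had 240 CPM in nuclei and 0.637 and 0.0863 CPM in cells. Chrm2, a muscarinic receptor, had 235 counts in nuclei and 2 in the 2 cell libraries together, a ratio of 510 with a 95% counting interval of 140 to 4233. Cacna1c, the L-type calcium channel, had 77.7 CPM against 0.283 and 0.259 CPM. The potassium channel subunits Kcnma1 and Kcnmb1 had 40.7 and 36.8 CPM in nuclei and at most 0.46 CPM in either cell library. Myocd, the co-activator that drives the smooth muscle programme, had 27.0 CPM against 0.177 and 0.0863 CPM. The calcium pump Atp2a2 (305 CPM against 94.5 and 151) and the calcium release channel Itpr1 (234 CPM against 100 and 125), which many cell types use, missed the 4-fold rule, while Pde5a, which breaks down cyclic GMP, had 179 CPM against 22.4 and 25.1. Chrm3, the muscarinic receptor that carries most of the contraction, and Ryr2, a calcium release channel, had 398 and 155 counts in nuclei and 0 in both cell libraries. Set against 3 counts over both cell libraries, Chrm3 was at least 575-fold higher and Ryr2 at least 224-fold higher.

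**Figure D2:**
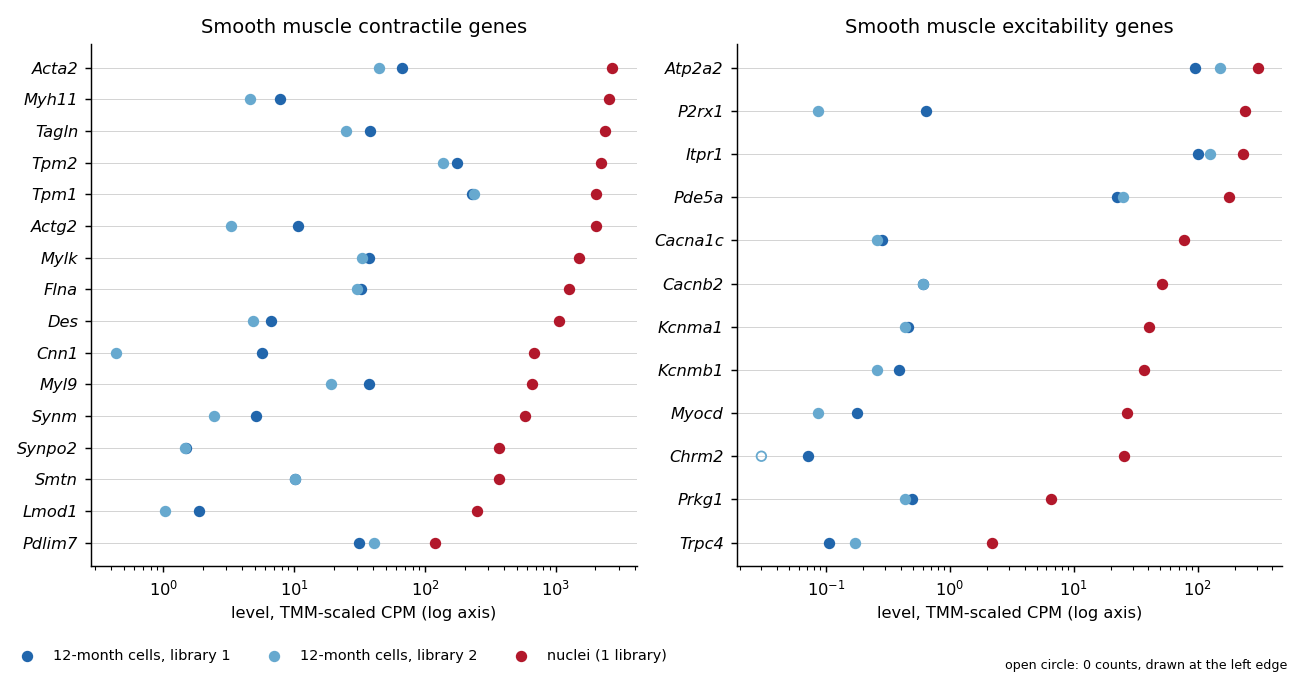
Levels of smooth muscle genes in the nuclei library and the 2 cell libraries, in TMM-scaled CPM on log axes, 1 point per library, with contractile genes on the left, excitability genes on the right and an open circle at the left edge for a count of 0. For Acta2 the 3 values are 2668, 66.9 and 44.5 CPM, and for Tpm1, the closest of the abundant genes, 2026, 229 and 238 CPM.

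The rise took in the links between muscle fibre and matrix. Of 11 genes of the dystrophin complex, which ties the cytoskeleton to the matrix across the membrane, 8 passed the filter on both sides, of which 6 were higher and none lower (median 1.94). Dmd, dystrophin itself, had 266 CPM in nuclei against 9.17 and 7.94 CPM. Sgcd, a sarcoglycan that passed only through nuclei, had 110 CPM against 0.177 and 0.0863, and Dtna, a dystrobrevin of the same kind, had 110 CPM against 0.283 and 0.259. The shared members Dag1, dystroglycan (77.7 CPM against 83.8 and 116, edgeR adjusted p = 0.228), and Sgce (41.2 CPM against 46.5 and 44.8, edgeR adjusted p = 0.602) did not pass. Of 13 adhesion and matrix receptor genes 10 passed on both sides, of which 8 were higher and none lower (median 1.92). Itga1, a collagen-binding integrin that passed only through nuclei (chr13:114958079-115101964, mm10), had 386 CPM in nuclei against 0.637 and 0.518 CPM. Its partner Itgb1, which most cells carry, had 290 CPM against 112 and 117. Itgb4, the integrin of basal epithelial cells, had 53.5 CPM against 40.3 and 55.6, inside the range of the cells.

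Muscle transcripts were also present in nuclei barcodes with urothelial transcripts. Per barcode, the contractile genes took a median of 2.60% of UMIs in nuclei (5th to 95th percentile 0.408 to 15.2%), and 33.6% of nuclei barcodes held more than 5%. In cells the medians were 0.0336% and 0.0312%, and 0.165% and 0.196% of barcodes held more than 5%. Only 2 of 3472 nuclei barcodes had no contractile UMI. Among the 213 nuclei barcodes (6.14%) with at least 1% of UMIs from the general urothelium list, the median contractile share was still 1.34%, at a median depth of 1003 UMIs. In the 2063 and 755 cell barcodes that met the same mark it was 0.0322% and 0.0288%. The part that free RNA shared between barcodes had in the muscle result was not tested. Weighting each barcode equally, the contractile list stood at 26.0 times the cell mean.

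Urothelial genes went the other way. Of 14 general urothelium genes 13 were lower in nuclei and none higher, 11 by the 4-fold rule, with a median of -3.26 (-3.29 with male-like cells, 13 of 14 lower). Their sum was 2168 CPM in nuclei against 19143 and 21867 CPM, 9.46-fold lower. They took 0.395% of nuclei counts (0.389 to 0.400%) and 1.46% and 1.58% of cell counts. Krt18, a keratin of simple epithelia, had 377 CPM in nuclei and 4032 and 4089 CPM in cells, a log2 difference of -3.43 ± 0.20 (edgeR adjusted p = 9.82e-08). Krt7 had 455 CPM against 3111 and 3104, and Krt19 had 343 CPM against 3134 and 3680. Sfn, the epithelial 14-3-3 sigma, showed the deepest fall of the list, 65.0 CPM against 2605 and 3160. The member that did not pass was Gata3, a transcription factor of urothelial identity, with 282 CPM against 360 and 300 (log2 difference -0.23 ± 0.20, edgeR adjusted p = 0.346), and its sign was positive without TMM scaling.

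Umbrella cell genes were lower in part. Of 8 members 5 were lower and none higher (4 by the 4-fold rule, median -3.16), among them the uroplakins, which plate the apical membrane. Upk3a had 377 CPM in nuclei and 3760 and 3921 CPM in cells (log2 difference -3.35 ± 0.20, edgeR adjusted p = 1.16e-07), and Upk1a had 219 CPM against 2302 and 2694. Upk1b had 208 CPM against 810 and 998 and missed the 4-fold rule. The other members were not called by edgeR: Gsdmc2 (121 CPM against 76.1 and 145), Krt20 (12.0 CPM against 31.5 and 83.9) and Sprr2f (0.435 CPM against 17.1 and 86.7). DESeq2 called Sprr2f lower, and edgeR with male-like cells called Krt20 and Sprr2f lower. The basal list split, with 1 of 8 genes higher and 5 lower (median -0.88, but 0.42 without TMM scaling). Krt15, a basal keratin, had 567 CPM against 4601 and 4098, Krt5 had 179 CPM against 445 and 645, and Col17a1, an anchor to the basement membrane, had 21.8 CPM against 10.9 and 6.99. Trp63, the master factor of basal cells, had 221 CPM against 175 and 125 (edgeR adjusted p = 0.052).

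Of 12 genes listed for urothelial metabolism and barrier, not all of them enzymes, 11 were lower and none higher, all 11 by the 4-fold rule (median -3.58). Gstm1, a glutathione transferase, was the most abundant message of both cell libraries, at 41802 and 37284 CPM, and had 2832 CPM in nuclei (log2 difference -3.80 ± 0.18, edgeR adjusted p = 3.42e-08). Gsta4 had 677 CPM against 8541 and 8444, and Gsto1 had 107 CPM against 2100 and 2433. Aldh1a3, a retinal dehydrogenase, was not called at 7.40 CPM against 4.21 and 5.95.

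Stromal and vascular genes gave a mixed picture, beside 25.5% higher and 32.6% lower among all genes that passed the filter on both sides. Of 14 fibroblast genes 3 were higher and 8 lower, none by the 4-fold rule (median -0.75, but 0.54 without TMM scaling and -0.45 and -0.96 with the first or the second cell library left out). Gsn, gelsolin, had 714 CPM in nuclei against 1847 and 1843, and Dcn, decorin, had 684 CPM against 1815 and 1389, while Col3a1, a fibrillar collagen, had 337 CPM against 216 and 141. The calls for Col1a2, Col3a1, C3 and Pdgfra were lost when a 24-month cell library was added. Blood endothelial genes were higher for 8 of 9 members (4 by the 4-fold rule, median 1.62), or 5 of 9 with DESeq2, for example Kdr, a VEGF receptor, at 11.6 CPM against 1.35 and 1.21. Of 6 lymphatic genes 4 passed only through nuclei, among them Mmrn1 at 17.6 CPM against 0.673 and 0.259, and of the other 2 Lyve1 was higher. Their sums were small, 117 and 90.5 CPM in nuclei against 36.5 and 20.9, and 19.0 and 2.33, in cells. Of 3 pericyte genes that passed on both sides 1, Pdgfrb, was higher and 1, Rgs5, lower. Cspg4 (NG2), which passed only through nuclei, had 43.8 CPM against 0.531 and 0.518, and Rgs5 stood at 35.7 CPM against 55.1 and 66.9, the latter reversed without TMM scaling and no longer called when a 24-month cell library was added. Of 4 mesothelial genes 3 were called higher by edgeR and 1 lower, but with DESeq2 none was higher and 1 lower.

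Immune genes were mostly lower or not called. Among all genes that passed the filter on both sides, 25.5% were higher and 32.6% lower, and the macrophage counts lie near these shares. Of 8 dendritic cell genes 6 passed the filter on both sides, and these 6 were lower by the 4-fold rule (median -4.30). Cd74, the invariant chain of antigen presentation, had 89.5 CPM in nuclei against 2384 and 1859 CPM (log2 difference -4.57 ± 0.25, edgeR adjusted p = 1.03e-07), and H2-Ab1 had 33.4 CPM against 890 and 675. Of 7 T and NK cell genes 5 passed only through cells, and the other 2, Cd3d and Cd3e, were lower. Of 10 macrophage genes 1 was higher and 4 lower (median -0.99, but 0.29 without TMM scaling and -0.44 without the first cell library): Lyz2, lysozyme, had 57.0 CPM against 377 and 550, while Mrc1, a mannose receptor, had 14.5 CPM against 5.70 and 2.76. None of the 6 B and plasma cell genes was called by edgeR, whereas DESeq2 called 5 lower and edgeR with male-like cells 4 of 4. The cell libraries differed among themselves, Jchain standing at 961 and 175 CPM against 0.98 CPM in nuclei. Of 3 neutrophil genes tested only Csf3r passed the filter on both sides, and it was not called, and the 2 mast cell genes tested, neither called, passed only through nuclei.

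Nerve-related genes were few, so their counts say little beside the 25.5% higher and 32.6% lower among all genes that passed on both sides. Of 6 Schwann cell genes that passed on both sides 2 were higher and none lower, with Scn7a, a sodium channel, at 23.5 CPM against 3.54 and 3.54. Of 4 neuronal genes that passed on both sides 2 were lower (median -1.01), led by Uchl1 at 83.0 CPM against 426 and 449. Over all 5 tested genes the median was -0.84, but 0.44 without TMM scaling, and -0.40 and -0.15 without the first and without the second cell library. Kit, 1 of 2 called of the 4 genes on the list for interstitial cells of Cajal, had 18.2 CPM in nuclei against 0.673 and 0.949.

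**Figure D3:**
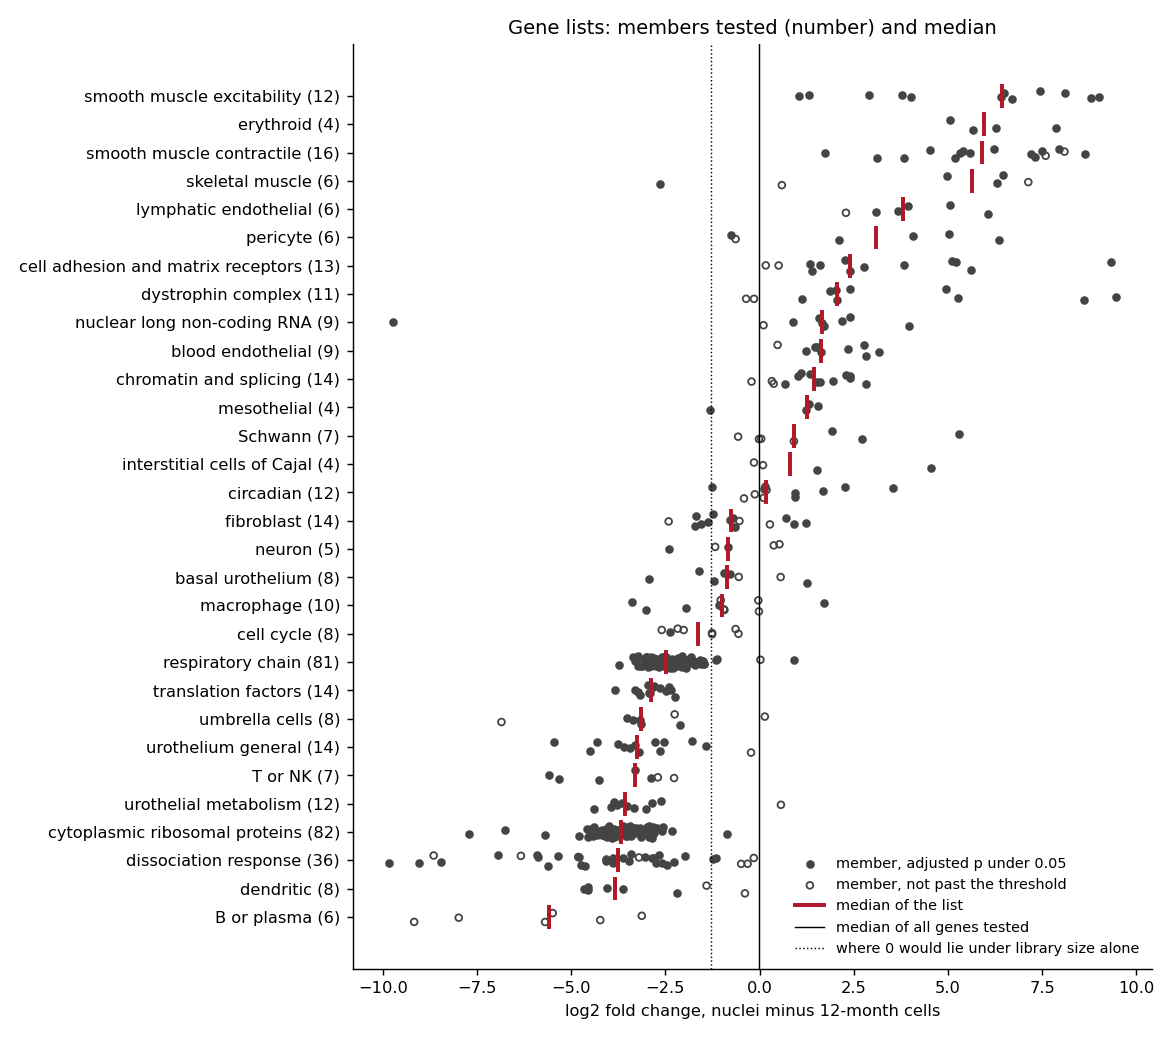
Log2 differences, nuclei over cells, of the tested genes of each list, for lists with at least 4 of them, with filled circles past the adjusted p threshold, a red bar at each median and a dotted line where 0 would lie under library size alone. Lists such as the erythroid one hold members that passed the filter only through nuclei. Contractile genes sit around a median of 5.90, cytoplasmic ribosomal proteins around -3.68 and fibroblast genes around -0.75, a sign that turns to 0.54 without that scaling, as it does for the basal, macrophage and neuron lists.

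RNAs that stay in the nucleus were higher in the nuclei library. Of 8 nuclear long non-coding RNAs that passed the filter on both sides 6 were higher and 1, Xist, lower. Malat1, a resident of nuclear speckles (chr19:5795690-5802672, mm10), had 81506 CPM in nuclei and 26063 and 26162 CPM in cells, a log2 difference of 1.64 ± 0.13 (edgeR adjusted p = 1.05e-06). It alone took 14.8% of nuclei counts (14.8 to 14.9%) and 1.98% and 1.89% of cell counts. Kcnq1ot1, the antisense RNA that silences an imprinted cluster, had 434 CPM against 77.5 and 88.5, and the imprinted Meg3 had 319 CPM against 71.7 and 69.5. Neat1, the scaffold of paraspeckles, had 807 CPM against 532 and 973, inside the range of the cells (edgeR adjusted p = 0.842). Genes annotated as long non-coding RNA held 15.9% of nuclei counts and 2.36% and 2.29% of cell counts, and without Malat1 1.26% against 0.382% and 0.411%. Of 14 genes for chromatin and splicing factors 11 were higher and none lower (4 by the 4-fold rule, median 1.43). Prpf4b, a splicing kinase, had 378 CPM against 51.8 and 54.8, and Pnisr had 608 CPM against 114 and 118, whereas the helicase Ddx5 (1130 CPM against 778 and 967) did not pass. Whether the counting used strand is not given in the sources used here, so Kcnq1ot1 and other antisense RNAs cannot be told apart from their overlapping genes.

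Messages for the translation machinery fell together. All 82 tested genes for cytoplasmic ribosomal proteins were lower in nuclei, 81 of them by the 4-fold rule, with a median of -3.68 (-3.67 with male-like cells, again 82 of 82). Their summed level was 34032 CPM in nuclei against 429220 and 458417 CPM in cells. They took 6.19% of nuclei counts (6.17 to 6.21%) and 32.6% and 33.1% of cell counts. Rpl13 had 1209 CPM against 12207 and 10826 (log2 difference -3.25 ± 0.19, edgeR adjusted p = 1.11e-07), Rps19 had 539 CPM against 11416 and 10045, and Rps14 had 498 CPM against 10815 and 10137. Of the 82 genes 62 (75.6%) stood higher in every shorter-list table than in every longer-list table, against 5.11% of all tested genes. The median over the 82 was 1.33-fold between the closest tables, against 0.248-fold over all tested genes, in CPM without TMM scaling. Rpl13a fell further, with 47.9 CPM against 10141 and 10104, and separated the tables by 6.98-fold. Ribosomal protein genes have many processed copies, and how the authors' counting divided reads among them is not given in the sources used here. All 14 translation factors were lower by the 4-fold rule (median -2.87), with Eef1a1, the elongation factor, at 1110 CPM against 7838 and 9225.

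Most nuclear-encoded genes of the respiratory chain were lower too. Of 81 tested, 78 were lower (59 by the 4-fold rule) and 1 higher, with a median of -2.48. Cox4i1, a subunit of cytochrome oxidase, had 343 CPM in nuclei against 2836 and 2682 CPM. The one that was higher was Uqcc1, an assembly factor of complex III, by 0.92 on the log2 scale, a call that DESeq2 did not make. Atp5o, another member, was at 0 in nuclei and had 11527 and 4296 counts in cells, but the nuclei table carries a second column of that name with 728 counts, so this 0 is a matter of the gene list.

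Genes that answer to dissociation were low in nuclei. The list holds 37 immediate-early, heat shock and stress genes, of which 36 were tested and 33 passed the filter on both sides. Of these 33, 27 were lower and none higher, with a median of -3.48. Over the 36 the median was -3.76 (-3.57 with male-like cells). In CPM without TMM scaling, 2 of the 36 (5.56%) stood higher in every shorter-list table than in every longer-list table, among them Fosl1 (2.67-fold). The share over all tested genes was 5.11%. Another 2 of the 36 stood higher in every longer-list table, against 41.0% of all tested genes. The sum of the list was 1685 CPM in nuclei against 17898 and 19445 CPM, 11.1-fold lower. Its share of counts was 0.307% (0.302 to 0.312%) against 1.36% and 1.40%. Fos, a subunit of the AP-1 transcription factor (chr12:85473890-85477274, mm10), had 35.6 CPM in nuclei and 2173 and 2020 CPM in cells (log2 difference -5.88 ± 0.24, edgeR adjusted p = 1.68e-08). Atf3, a stress-induced repressor (chr1:191170296-191183333, mm10), had 1.74 CPM against 901 and 951 CPM (-9.05 ± 0.31, edgeR adjusted p = 8.49e-09). Both stood low in nuclei and close together in the 2 cell libraries. Junb had 134 CPM against 1869 and 1462, Jun had 86.1 CPM against 1373 and 1168, and Fosb had 11.3 CPM against 603 and 770. The nuclear receptor Nr4a1 had 3.16 CPM against 364 and 410, and Egr1 had 19.5 CPM against 394 and 579. Fosl1, Cxcl1 and Il6 are the 3 members that passed the filter only through cells, and the first and the last are given as values. Fosl1 had 1 count in nuclei and 3933 in cells, a cell to nuclei ratio of 907 with a 95% counting interval of 163 to 35825. Il6, an inflammatory cytokine, had 1 count in nuclei and 1419 in cells, a ratio of 327 (58.6 to 12931).

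Among the members not called were Hspa1b, an inducible heat shock protein (29.2 CPM against 40.1 and 32.5, edgeR adjusted p = 0.297), Hsph1 (23.0 CPM against 31.3 and 19.5, edgeR adjusted p = 0.686) and Cebpb (49.2 CPM against 50.4 and 88.4, edgeR adjusted p = 0.258). All 3 changed sign without TMM scaling, and the first 2 also with male-like cells. Hspa8, the constitutive heat shock protein, was lower but missed the 4-fold rule, at 340 CPM against 1329 and 1362.

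Bulk RNA sequencing of 3 intact and 3 dissociated bladder samples from 12-month females (3 mice per library), with 22478286 to 66874185 and 23719060 to 27494368 reads per library, gave the same genes in a preparation without droplets. The lists were chosen with earlier results of these data known, so their bulk counts are a description and no independent support. For the dissociation list, all 36 genes were lower in intact than in dissociated tissue, at a median log2 difference of -3.88. Fos had 22.2 ± 9.37 CPM in intact and 2617 ± 491 CPM in dissociated bulk (SD, n = 3 each), and Atf3 had 5.75 ± 3.59 against 996 ± 91.1 CPM. Hspa1b, not called between nuclei and cells, had 49.8 ± 3.94 against 675 ± 57.6 CPM, and Cebpb had 6.39 ± 1.62 against 55.8 ± 8.47 CPM. The 6 bulk libraries were counted on 1 gene list. Contractile genes were higher in intact bulk for 16 of 16, at a median of 3.67, with Myh11 at 15260 ± 744 against 945 ± 235 CPM and Acta2 at 7672 ± 89.6 against 653 ± 72.1 CPM. Adhesion genes were higher in intact bulk for 12 of 13 (median 1.21), and dystrophin complex genes for 7 of 11 (median 0.49). Over 13363 genes with at least 1 CPM in bulk, 59.2% were higher in intact tissue.

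The sizes and in part the signs differed for other groups. Ribosomal protein genes had a bulk median of -0.22 and translation factors -0.09, and respiratory chain genes had 0.59, with 76 of 81 higher in intact tissue, where nuclei gave -2.48. General urothelium genes had a bulk median of -0.70 (1 of 14 higher in intact tissue), fibroblast genes -1.02 (0 of 14) and dendritic cell genes -0.83 (0 of 8). Umbrella cell genes had a bulk median of 1.09 (6 of 8), where nuclei gave -3.16. Blood endothelial genes, higher in nuclei, had -0.70 (1 of 9) and lymphatic genes -0.77 (0 of 6). Upk3a, lower in nuclei than in cells, had 738 ± 40.4 CPM in intact and 352 ± 68.8 CPM in dissociated bulk. Over 13363 genes with at least 1 CPM in bulk, Pearson's r between the nuclei and the bulk differences was 0.371 and Spearman's rho 0.191, a description across genes, which are not independent. Of 1187 such genes higher in nuclei by the 4-fold rule, 848 (71.4%) were higher in intact bulk, against 59.2% of all 13363. Of 1454 lower ones, 775 (53.3%) were higher in dissociated bulk, against 40.8% of all.

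**Figure D4:**
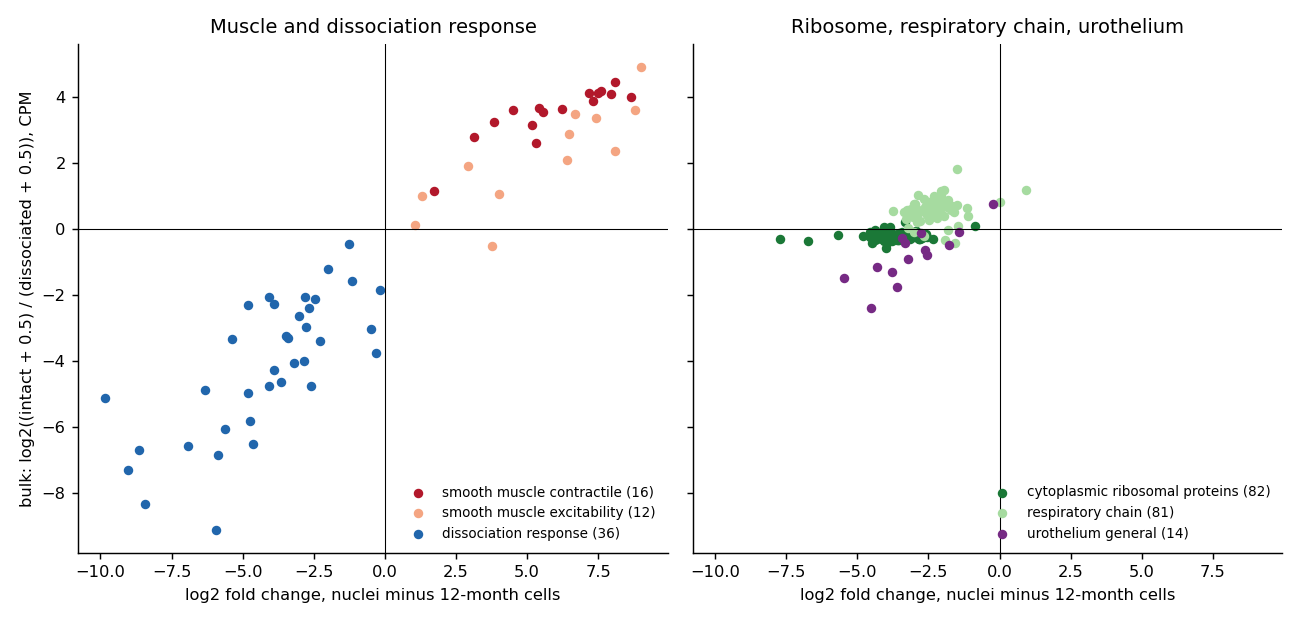
Log2 difference, nuclei over cells (horizontal, TMM-scaled), against log2 difference, intact over dissociated bulk tissue (vertical, CPM + 0.5), 1 point per gene, with muscle and dissociation lists on the left and ribosomal, respiratory and urothelial lists on the right. In median the dissociation response stands at -3.76 and -3.88 and the contractile genes at 5.90 and 3.67, while ribosomal proteins stand at -3.68 and -0.22.

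Both the contractile and the dissociation-response genes hold members known to be driven through short promoter elements, and 3 windows are shown because their genes moved in opposite directions. RefSeq promoters (build GRCm38.p6, 250 bases before to 50 after the start) were searched on both strands for the CArG box, bound by serum response factor, for TGANTCA, the AP-1 site, and for TGACGTCA, the cyclic AMP response element. The CArG box stood in 1.63% of all 32851 promoters, TGANTCA in 7.81% and TGACGTCA in 1.79%. Promoters matched for 13 of 16 contractile genes, of which Myl9 held a CArG box and Mylk a TGANTCA. They matched for 28 of 37 dissociation genes, with 30 promoters, of which Zfp36 held a CArG box, Il6 and Mt2 a TGANTCA, and Btg2 and Dusp1 a TGACGTCA. The 15 promoters of 11 excitability genes held none of the 3. The lines give about 100 bases in the direction of transcription, with the element in capitals.
Myl9 (chr2:156775258-156775357, plus strand): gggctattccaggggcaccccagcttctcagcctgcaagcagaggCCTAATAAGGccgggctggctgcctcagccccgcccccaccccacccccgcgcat
Zfp36 (chr7:28379232-28379331, minus strand): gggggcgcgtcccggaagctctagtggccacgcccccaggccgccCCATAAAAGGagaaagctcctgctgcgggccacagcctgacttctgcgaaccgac
Dusp1 (chr17:26508563-26508660, minus strand): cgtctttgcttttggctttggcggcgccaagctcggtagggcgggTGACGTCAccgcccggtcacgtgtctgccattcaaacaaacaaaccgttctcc
The box of Myl9 began 161 bases before its start site, that of Zfp36 58 bases before and the element of Dusp1 143 bases before. Myl9, a myosin light chain, was higher in nuclei, at 654 CPM against 37.5 and 19.2. Zfp36, which hastens decay of inflammatory messages, was lower, at 27.9 CPM against 411 and 524, as was Dusp1, a phosphatase that damps MAP kinases, at 21.9 CPM against 523 and 695. A match of letters is a description and says nothing about binding.

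Among single genes, the 15 widest rises by the 4-fold rule among genes with a mean of the nuclei and cell levels of at least 20 CPM, predicted genes left out, were led by Col25a1, a membrane collagen (chr3:130180358-130599884, mm10), which had 1323 counts in nuclei and 3 in cells, a ratio of 1913 with a 95% counting interval of 653 to 9287. Rbfox3, a splicing regulator best known as the neuronal marker NeuN, had 761 counts against 3, a ratio of 1100 (375 to 5347). Ptprz1, a receptor phosphatase, had 114 CPM against 0 and 0.345, and Igsf9b had 55.2 CPM against 0.106 and 0.0863. Wscd2 (45.7 CPM against 0.142 and 0), Ank1, an ankyrin (99.2 CPM against 0.425 and 0), Synpo2, a Z-disc protein (369 CPM against 1.49 and 1.47), and Myom1, myomesin (105 CPM against 0.354 and 0.604), were also in this group with Sgcd, Itga1, P2rx1, Myh11, Dtna and Cacna1c. Mia2 was the remaining one of the 15. Of these 15, 13 passed the filter only through nuclei, all but Myh11 and Synpo2, so the ranking is a description of genes that had to differ. Mia2 stood 243-fold higher in every longer-list table than in any shorter-list table, Col25a1 82.2-fold, Rbfox3 44.6-fold and P2rx1 44.7-fold. In bulk, Col25a1 had 64.4 ± 5.33 CPM in intact and 3.73 ± 1.15 CPM in dissociated tissue (SD, n = 3 each), and Rbfox3 had 126 ± 11.9 against 4.01 ± 1.53 CPM. Bulk differences were smallest for Igsf9b (log2 intact over dissociated 0.95), Sgcd (0.49) and Mia2 (-0.11). Mia2 had 0.544 CPM in intact and 0.626 CPM in dissociated tissue, near the pseudocount of 0.5 CPM.

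The 15 deepest falls were Rpl13a, Fdx1l, Srp54b, Hbegf, the ribosomal pseudogenes Rpl13a-ps1, Rpl9-ps6, Rps12-ps3 and Rpl10-ps3, and Xist, Fosl1, Atf3, Ccl4, Il6, Areg and Krt23. The first 8 stood lower in every longer-list table than in any shorter-list table, by 2.81-fold (Rpl10-ps3) to 179-fold (Fdx1l). So did Areg (3.05-fold), Krt23 (2.98-fold), Fosl1 (2.67-fold) and Xist (1.09-fold). Of the 15 falls, Rpl13a-ps1, Fosl1, Fdx1l, Ccl4 and Il6 passed the filter only through cells. Areg, a growth factor for epithelia, had 2.18 CPM in nuclei against 434 and 745 CPM (log2 difference -8.07 ± 0.54, edgeR adjusted p = 3.48e-05). Krt23 had 2.83 CPM against 398 and 532. Ccl4, a chemokine, had 1 count against 2160, a cell to nuclei ratio of 498 (89.3 to 19679). In bulk Areg had 1.23 ± 0.219 CPM in intact and 136 ± 57.4 CPM in dissociated tissue, and Krt23 had 5.67 ± 1.15 against 319 ± 146 CPM. Hbegf, Fosl1, Atf3, Ccl4 and Il6 were also lower in intact bulk, by log2 differences from -8.34 (Il6) to -3.61 (Ccl4). For the ribosomal pseudogenes, Rpl13a, Fdx1l, Srp54b and Xist the bulk log2 differences ran from -0.57 (Xist) to 0.27 (Rpl10-ps3). Of these, Rpl13a-ps1, Rps12-ps3 and Rpl10-ps3 stood under 1 CPM in bulk, where the pseudocount of 0.5 CPM shrinks differences. Rps12-ps3 had 0.0545 CPM in intact and 0.191 CPM in dissociated tissue.

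Genes at 0 on one side were mostly rare. Those at 0 in nuclei had a median of 0.0608 CPM in cells and those at 0 in cells a median of 0.109 CPM in nuclei, and 3 counts, the upper limit that a count of 0 allows, correspond to 0.327 CPM in the nuclei library and 0.0753 CPM over both cell libraries. At 10 CPM or more, 14 genes were at 0 in cells. Beside Chrm3 and Ryr2 they included Fbxl7 (353 counts in nuclei, at least 510-fold higher), the synaptic protein gene Rims1 (200 counts, at least 289-fold higher), Nfasc, which organises axon membranes (123 counts, at least 178-fold higher), and the glutamate receptor Gria1 (103 counts, at least 149-fold higher). Srp54a and Atn1 were also at 0 in cells, but both moved with the gene list. Another 12 genes at 10 CPM or more in cells were at 0 in nuclei. Il1b, the cytokine interleukin 1 beta, had 2830 and 1202 counts in cells and was at least 312-fold lower in nuclei, and Ptx3, an acute-phase protein, had 109 and 198 counts and was at least 32.1-fold lower. Atp5o and Lipo1 of this group moved with the gene list. These named genes were chosen from the lists after their values were seen.

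The difference between nuclei and cells also followed the length of the gene. Genes were grouped by their span on the chromosome, exons and introns together, in RefSeq GRCm38.p6, which gave a span for 13854 tested genes (97.1%). The median log2 difference was -1.34 for 1732 genes of up to 5 kb, -0.55 for 4569 genes of 5 to 20 kb, 0.02 for 3730 genes of 20 to 50 kb, 0.52 for 1955 genes of 50 to 100 kb, 0.83 for 1158 genes of 100 to 200 kb and 1.13 for 710 genes over 200 kb. By the 4-fold rule, 5.49% of the shortest genes were higher and 32.5% lower, against 26.5% and 0.986% of the longest. Spearman's rho between span and difference was 0.403 across genes, and -0.103 for the bulk difference, whose medians ran from 0.17 in the shortest to -0.01 in the longest class. Without ribosomal and respiratory chain genes the medians ran from -1.21 to 1.13. Whether reads in introns were counted is not given in the sources used here, and its part in this relation was not tested. Among the named genes, Fos (3.38 kb), Krt18 (3.81 kb) and Upk3a (5.42 kb) are short, and Itga1 (144 kb) and Col25a1 (420 kb) are long, while P2rx1 (16.1 kb), which rose, lies in the class of 5 to 20 kb.

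**Figure D5:**
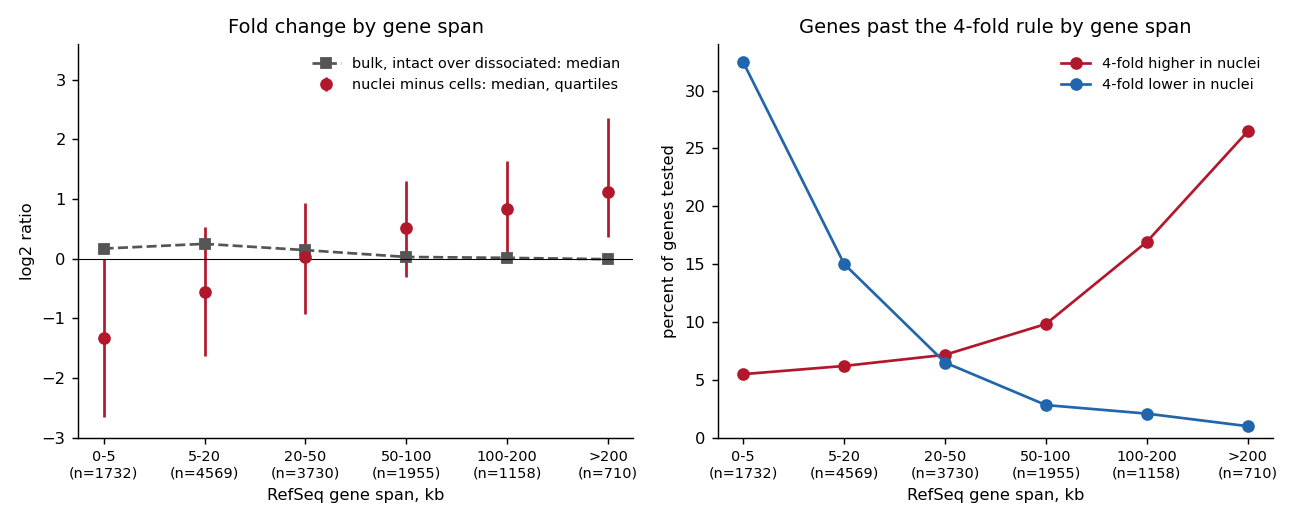
Tested genes by class of gene span in kilobases: on the left the log2 difference, nuclei over cells, as median (red points) and quartiles (lines) with the bulk median (grey squares), and on the right the percentage of genes past the 4-fold rule in each direction. Medians for nuclei run from -1.34 in genes of up to 5 kb to 1.13 in genes over 200 kb.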

How the data were processed

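Droplet libraries were made with the standard Chromium kit, per the labels' protocols, for 1 sample of nuclei and 2 of cells, and bulk libraries from homogenised tissue after poly(A) selection. The submitters' processing notes name bcl2fastq, Cell Ranger, Space Ranger, Subread, featureCounts and mm10; versions, the annotation release and the handling of intronic reads are not given in the sources used here. The deposited values are whole-number counts per gene, UMIs for droplets and reads for bulk.

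Counts were summed per library over all barcodes with at least 500 UMIs (none fell below), on genes common to the 3 tables, without mitochondrial genes. No doublet caller was run, since whole libraries were summed. Genes at 0 on one side were listed apart. edgeR 4.0.16 (R 4.3.3) fitted 1 nuclei against 2 cell libraries (filterByExpr, TMM, quasi-likelihood F test, Benjamini-Hochberg adjustment); a standard error is the log2 difference over the square root of F. With 1 residual degree of freedom the spread is shared in part across genes. The prior degrees of freedom, the weight given to other genes, ran from 0.232 to 10.6, so some genes rested mostly on their own spread. Total counts of 5047027 (nuclei), 37142337 and 16045607 (cells) on these genes set the precision, and intervals cover counting error only. On simulated counts with known changes, 91.5% of genes lowered 8-fold, 79.2% of those lowered 4-fold, 100% of those raised 4- or 8-fold and 0.047% of 12762 unchanged genes were called. Those counts were drawn from the cell levels with the same spread for every gene and few changed genes. The real libraries differ in both, so these rates do not carry over to them. CPM are counts per 1000000 of the library. Bulk values are CPM with a pseudocount of 0.5 CPM in log2 differences. The rule for named genes was the 15 widest differences in each direction by the 4-fold rule with a mean of the nuclei and cell levels of at least 20 CPM, predicted genes left out, and the 4 most abundant of each list; others named were chosen after their values were seen. Members and the 33 gene lists were chosen with earlier results of these data known. Alternatives were other scaling, filters, fold limits, DESeq2 1.42.0, left-out libraries, an added 24-month cell library and male-like cells.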

Additional observations from a re-analysis of the deposited data

How the results depend on the processing

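Directions held under all alternatives for the contractile, general urothelium, ribosomal and dissociation lists, while counts and medians moved. The total of 8268 called genes became 6374 with DESeq2, 8594 with DESeq2's size factors in edgeR and 8802 without the filter. Under library size alone 8468 genes were higher and 1726 lower (4086 and 412 by the 4-fold rule), with medians of 7.19 (contractile), -1.96 (urothelium), -2.38 (ribosomal) and -2.47 (dissociation), and reversed medians of 0.42 (basal), 0.54 (fibroblast), 0.29 (macrophage), 1.06 (neutrophil) and 0.44 (neuron). It also reversed Dag1 (0.94), Sgce (1.14), Gata3 (1.06), Shh (0.34), Dcn (0.063), Col1a2 (0.51), Hspa1b (0.97), Hsph1 (1.13), Cebpb (0.81) and Rgs5 (0.53); the scaling alone differs here, and the median over all genes moved from -0.02 to 1.27. A limit of 2-fold gave 2954 higher and 3398 lower genes, and 8-fold 671 and 574. Adding the 24-month cell library moved the contractile median to 5.36, urothelium to -3.04 and ribosomal to -3.58, and the log2 difference of Hbb-bs, a globin, to 2.96. Male-like cells gave 6.91 (contractile) and -3.57 (dissociation), and Sgce 0.042, Hspa1b 0.15 and Hsph1 0.26. The ribosomal median was -3.77 without the filter and -3.75 with barcodes of at least 1000 UMIs. Leaving out each cell library in turn, with no p possible, gave 1520 to 1614 genes higher and 1682 to 1981 lower by fold alone, and medians of 5.66 to 6.33 (smooth muscle contractile), -3.32 to -3.09 (urothelium general), -3.67 to -3.60 (cytoplasmic ribosomal proteins), -3.74 to -3.52 (dissociation response); Gsdmc2 ranged from -0.17 to 0.69, Neat1 from -0.18 to 0.62 and Hsph1 from -0.43 to 0.32. With each barcode weighted equally, the nuclei to cell ratio of the list sums was 26.0 (contractile), 0.086 (ribosomal) and 0.0724 (dissociation). The cause of these changes was not tested. Over 141 named genes and 1953 comparisons, 16 reversed, 19 lost their call and 32 gained one. No paired analysis was possible because the nuclei group is 1 library. At 5047027 counts, 1 count in nuclei is 0.109 CPM, and a gene at 0 there may still stand at up to 0.327 CPM.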

Other observations

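Globin transcripts were present at low levels in the nuclei library and nearly absent from cells. The 4 tested globin genes passed the low-count filter only through nuclei, so their number is no result, and their sum was 69.1 CPM in nuclei against 0.283 and 1.81 CPM in cells. Hbb-bs, a beta globin, had 38.2 CPM against 0.0354 and 0.431 CPM, and its log2 difference of 7.86 became 2.96 when the 24-month cell library was added. In bulk Hbb-bs was lower in intact tissue, 41.8 ± 3.12 CPM against 188 ± 17.9 CPM in dissociated tissue (SD, n = 3 each). Skeletal muscle genes did not move one way. Of 6 tested, 3 passed the filter on both sides, of which none was higher and 1 lower. Ckm, muscle creatine kinase, which passed only through nuclei, had 52.0 CPM in nuclei against 0.708 and 0.345 CPM, and Acta1, skeletal actin, had 378 CPM against 4.25 and 0.345 CPM (edgeR adjusted p = 0.136), while Mylpf, the light chain of fast fibres, had 0.435 CPM against 3.01 and 2.50 CPM. Myh1, a myosin of fast fibres, was at 0 in both cell libraries and Myh4 at 0 on both sides. The single tested adipocyte gene, Cfd, passed only through nuclei, and its edgeR call was not made by DESeq2.

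Of 12 circadian clock genes 5 were higher, 1 lower and 6 not called (median 0.17, and 0.60 and 0.48 with the first or the second cell library left out). All 12 passed the filter on both sides, where 25.5% of all genes were higher and 32.6% lower. Per3 had 122 CPM in nuclei against 32.8 and 17.1 CPM, and Hlf, a clock output factor, had 18.7 CPM against 1.70 and 1.47 CPM. Of 8 cell cycle genes 1, Pcna, was lower and none higher, and their sum was 26.5 CPM in nuclei against 100.5 and 78.5 CPM in cells.

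At its full 5047027 counts the nuclei library held 17214 genes, and the cell libraries thinned to that total held 15222 and 15106. Numbers of barcodes and UMIs per barcode were not matched. Its 100 most abundant genes took 30.9% of counts against 47.4% and 47.6%. Of the 4 Y-linked genes 3 were higher in nuclei than in cells, by 1.64 (Uty), 1.71 (Kdm5d) and 1.24 (Eif2s3y) on the log2 scale, while Ddx3y stood at 74.0 CPM against 72.7 and 79.8 CPM, inside the range of the cells (edgeR adjusted p = 0.879).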
